A study of Mus musculus with 8 samples.

Results

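Chromatin accessibility was examined at 10 gene loci of the Bcl2 family of apoptosis regulators: Bcl2, Bcl2l1, Mcl1, Bax, Bak1, Bcl2l11, Bmf, Bik, Bbc3 and Pmaip1. A consensus region, an interval where at least 1 of the cell lines had an ATAC-seq peak, was taken as a member when its nearest protein-coding gene body was one of these genes, either overlapping it or lying up to 50 kb away. All 10 genes had at least 1 region, and together they held 64 of the 57417 consensus regions. Bmf had 14 regions, Bcl2l1 13, Bcl2 9 and Bcl2l11 7. Mcl1, Bbc3 and Pmaip1 had 5 each, and Bax, Bak1 and Bik had 2 each. All 64 regions passed the filter on low counts.

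ATAC-seq, in which the Tn5 transposase cuts and tags open chromatin, was carried out on PB3, a mouse breast cancer line, in 8 libraries. PB3 lacks the oestrogen receptor, the progesterone receptor and Her2 per its labels (Er-/Pr-/Her2-). PB3-Parental was untreated, and 3 drug-resistant derivatives, PB3-ERI-R (eribulin, spelled Erubilin in the labels), PB3-PAC-R (paclitaxel) and PB3-VIN-R (vinorelbine), had been raised at 300, 500 and 800 nM of their drug. All 3 drugs act on microtubules. Each line had 2 libraries. The labels call the resistant cells clones, give 1 derivative per drug, and do not say whether the 2 libraries of a line came from separate cultures, so p-values measure the spread between these libraries, which may be technical. A property of 1 derivative and an effect of its drug cannot be told apart.

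The Bcl2 family controls whether the outer membrane of the mitochondrion is opened during apoptosis. Bcl2, Bcl-xL (the product of Bcl2l1) and Mcl1 keep the membrane closed, whereas Bax and Bak (from Bak1) form the pores through which cytochrome c leaves. The BH3-only proteins Bim (Bcl2l11), Bmf, Bik, Puma (Bbc3) and Noxa (Pmaip1) bind the protective members or activate the pore formers, and Bim and Bmf are known to associate with the microtubule and actin motor complexes. In cells arrested in mitosis by microtubule drugs, loss of Mcl1 protein and the amount of Bim, Noxa and Bcl-xL are known to bear on whether a cell dies. Accessibility is a property of the DNA in and near a gene and is not a measure of its RNA or protein.

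The annotated transcription starts of the family differ in their sequence, and 5 windows are shown because the results turn on them: the 3 starts of Bmf, of which the innermost was called higher and the others were not called, and the starts of Mcl1 and Bcl2. Each is the 250 bases before a RefSeq start (GRCm38.p6), printed 5′ to 3′ on the strand of the gene, and capitals mark matches to the motifs listed below. The innermost Bmf start lies on the minus strand with its window at chr2:118544588-118544837, the middle one at chr2:118547600-118547849 and the outermost one at chr2:118549687-118549936. The Mcl1 window is chr3:95658471-95658720 on the plus strand, and the Bcl2 window is chr1:106714291-106714540 on the minus strand.
Bmf innermost start: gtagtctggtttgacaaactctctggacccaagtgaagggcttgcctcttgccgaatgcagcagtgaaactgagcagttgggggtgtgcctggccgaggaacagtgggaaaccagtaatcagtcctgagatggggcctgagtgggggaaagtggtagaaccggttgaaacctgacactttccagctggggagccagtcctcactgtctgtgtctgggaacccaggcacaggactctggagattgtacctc
Bmf middle start: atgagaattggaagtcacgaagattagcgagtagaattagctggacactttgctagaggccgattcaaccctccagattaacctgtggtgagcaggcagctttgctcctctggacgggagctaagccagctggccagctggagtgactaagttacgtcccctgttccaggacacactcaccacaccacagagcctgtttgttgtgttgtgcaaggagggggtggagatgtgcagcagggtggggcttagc
Bmf outermost start: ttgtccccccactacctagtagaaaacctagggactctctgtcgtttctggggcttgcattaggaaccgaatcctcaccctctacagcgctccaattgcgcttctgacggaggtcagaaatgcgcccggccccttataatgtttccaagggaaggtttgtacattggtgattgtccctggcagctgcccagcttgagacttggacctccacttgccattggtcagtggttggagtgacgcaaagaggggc
Mcl1 start: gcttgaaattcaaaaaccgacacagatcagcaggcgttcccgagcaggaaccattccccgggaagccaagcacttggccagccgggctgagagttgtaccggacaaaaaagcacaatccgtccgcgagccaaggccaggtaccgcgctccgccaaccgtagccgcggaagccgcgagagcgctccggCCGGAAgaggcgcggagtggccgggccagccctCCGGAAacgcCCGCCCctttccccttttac
Bcl2 start: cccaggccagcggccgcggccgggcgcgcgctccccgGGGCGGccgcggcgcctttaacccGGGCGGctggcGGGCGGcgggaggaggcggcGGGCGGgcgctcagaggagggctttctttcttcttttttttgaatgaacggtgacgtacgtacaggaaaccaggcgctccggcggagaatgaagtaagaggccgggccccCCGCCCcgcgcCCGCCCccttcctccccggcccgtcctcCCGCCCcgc

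Motifs were searched on both strands: the AP-1 site TGANTCA, the cyclic AMP response element TGACGTCA, the E-box CACGTG, the GC box GGGCGG, the ETS core CCGGAA, the Foxo site GTAAACA, the E2f site TTNGCGC and the Grainyhead-like site AACCNGGTT. Of 32817 annotated start windows of the same length, 32.7% held a GC box, 12.0% an ETS core, 6.75% an AP-1 site, 6.02% an E-box, 5.19% an E2f site, 3.16% a Foxo site, 1.55% a cyclic AMP response element and 0.241% a Grainyhead-like site. As searched, none of these motifs was found in the 3 Bmf windows, which says only that these letters are not in them. The innermost Bmf window does hold AACCGGTT, the Grainyhead-like pattern without its N. That form was not searched, so its share over all windows is not given. The Mcl1 window held 2 ETS cores and 1 GC box, and the Bcl2 window held 7 GC boxes. The innermost Bmf window had 3 CpG dinucleotides and a GC content of 55.6%, against 36 and 74.8% for Bcl2 and a median of 6.0 and 52.4% over all windows. Starts were found for 8 of the 10 genes (15 starts, 13 of them inside a consensus region). Of these, 1 at Bcl2l11 lies in a region counted for Acoxl and not for a member. Bik and Pmaip1 had none in the table used.

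Counts over all consensus regions totalled 10521964 to 24052237 per library. The PB3-ERI-R libraries stood apart: their log2 CPM (counts scaled to a common library size) correlated with those of the other lines at r = 0.133 to 0.230 over all regions, against 0.948 to 0.982 among the other 6 libraries, as a description over regions that share libraries. Epithelial marker loci summed to 944 and 1065 CPM in PB3-ERI-R and to 477 and 620 in PB3-Parental, with 5 of 8 higher and 0 lower by the edgeR test used throughout (Benjamini-Hochberg adjusted p under 0.05), where 58.3% of all loci were called. Mesenchymal marker loci summed to 652 and 693 CPM in PB3-ERI-R and to 931 and 947 in PB3-Parental, with 1 of 8 higher and 5 lower. Macrophage (141 to 159 against 208 to 243 CPM, 5 of 7 loci measured, 1 called higher, Fcgr1, and 4 lower), endothelial (117 to 123 against 196 to 211, 5 of 6, 0 higher and 3 lower) and adipocyte (51.8 to 53.9 against 167 to 186, 4 of 5, 0 higher and 3 lower) marker loci were lower in sum in PB3-ERI-R, and none of the measured ones was at 0. The part of any of these in the results below was not tested.

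Against PB3-Parental, 7 of the 10 family loci changed in summed accessibility in PB3-ERI-R (edgeR quasi-likelihood test, adjusted p under 0.05), with Bik, Bcl2l11, Bmf and Bcl2 higher and Pmaip1, Bax and Mcl1 lower. Of all 14939 gene loci tested, 58.3% were called in the same comparison, 28.0% higher and 30.3% lower, so the share of family loci called was near the background. Their median log2 difference was 0.13, against -0.00 over all loci. The PB3-ERI-R libraries lay above the other 6 libraries at 5 loci (Bcl2, Bcl2l11, Bik, Bmf and Bbc3), below them at 3 (Mcl1, Bax and Pmaip1), and overlapped them at Bcl2l1 and Bak1. Over all loci, 33.9% lay above the other 6 libraries in PB3-ERI-R and 35.5% below. For PB3-PAC-R 0 of 10 loci changed (background 0.114%; 0 at an unadjusted p under 0.05, 0 by DESeq2), and for the vinorelbine line PB3-VIN-R 0 of 10 (background 0.669%; 1 at an unadjusted p under 0.05, 0 by DESeq2). Fits of only the 2 lines compared, without the PB3-ERI-R libraries, also called 0 loci for each.

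**Figure D1:**
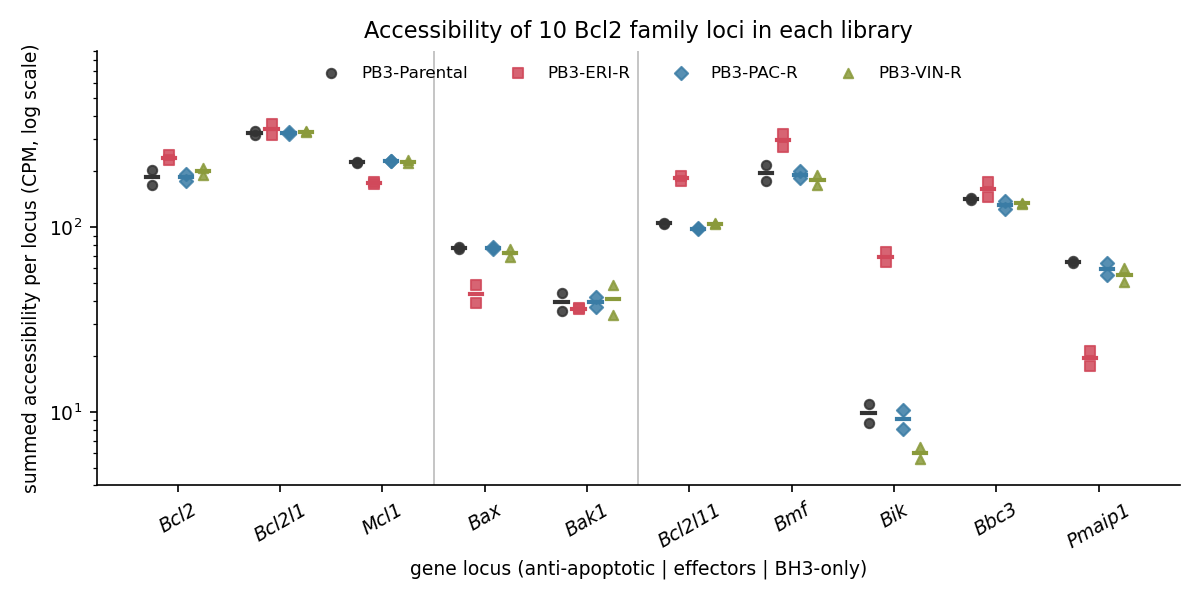
Summed accessibility of each locus (CPM, log scale) in the 8 libraries, grouped by role; points are libraries and bars the mean of the 2 libraries of a line. PB3-ERI-R stands above the other lines at Bik (64.7 and 73.1 CPM) and below them at Pmaip1 (17.8 and 21.3), while the other 3 lines lie close together at most loci.

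**Figure D2:**
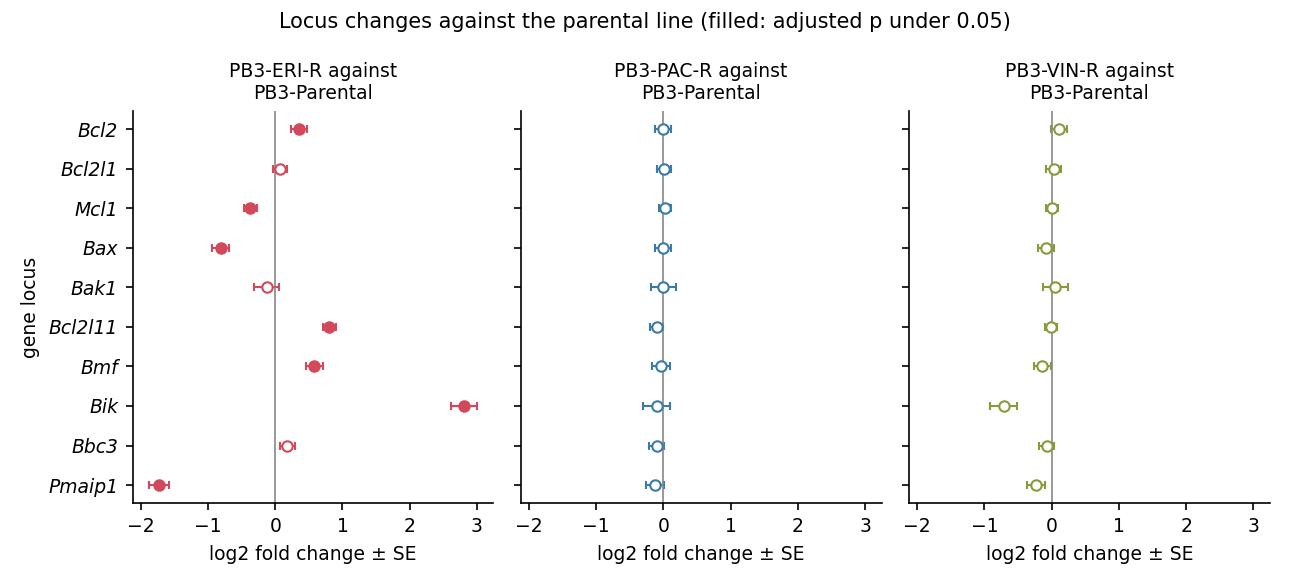
Log2 fold change ± SE of each locus in the 3 resistant lines against PB3-Parental; filled points passed an adjusted p under 0.05. In PB3-ERI-R 7 of 10 loci passed, from -1.73 at Pmaip1 to 2.80 at Bik; 0 passed for PB3-PAC-R or PB3-VIN-R.

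At the level of single regions, 41 of the 64 changed in PB3-ERI-R against PB3-Parental, 27 higher and 14 lower. The background was 73.0% of regions called (35.4% higher, 37.6% lower), above the family's 64.1%. Scaling by total counts alone, which shifted the median log2 difference over all regions from 0.07 to -0.29, gave 18 higher and 19 lower, and 25.9% higher and 43.8% lower over all regions. Of the 12 regions that hold an annotated start, 7 were higher and 0 lower, from -0.36 to 2.50 on the log2 scale. The background was 54.0% called in either direction among start-holding regions, whose median over all genes was 0.37. Its split into higher and lower is not given here, so the direction of the 7 does not set the family apart. Among the 52 regions without a start, 20 were higher and 14 lower, from -4.21 to 5.86 (background 76.7%). By the deposited peak lists, 24 of the 64 regions had a peak in all 4 lines, 13 in all lines but PB3-ERI-R, 10 in PB3-ERI-R alone and 6 in PB3-VIN-R alone. Shares of these patterns over all consensus regions are not given here, so the counts do not set the family apart. Nearest-gene assignment does not show which gene a region acts on. Regions and loci were scaled separately, so locus and region values are not on the same scale. The scaling factors of PB3-ERI-R were 0.8023 and 0.8584 for regions and 0.9299 and 0.9755 for loci. In PB3-Parental they were 1.062 and 1.06 for regions and 0.9982 and 1.024 for loci. The locus scaling thus sets PB3-ERI-R lower against PB3-Parental than the region scaling does.

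**Figure D3:**
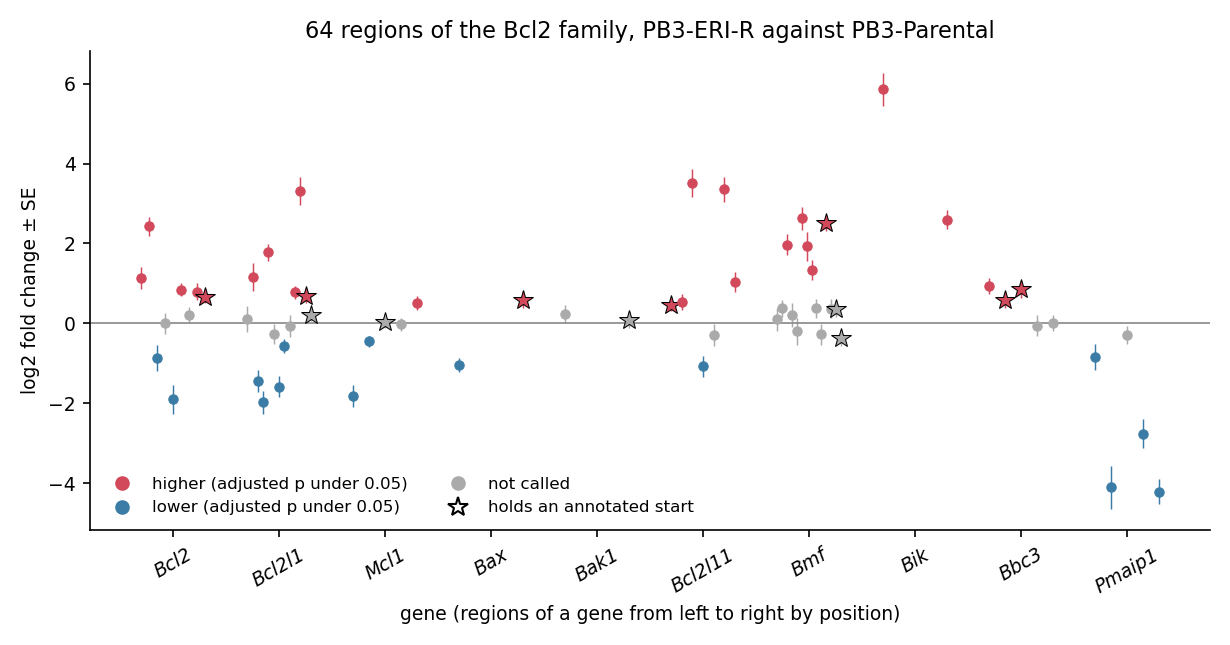
Log2 fold change ± SE of the 64 regions in PB3-ERI-R against PB3-Parental, by gene and, within a gene, by position; red and blue mark regions called higher and lower, grey those not called, and stars those holding an annotated start. Both Bik regions are higher, 4 of 5 Pmaip1 regions are lower, and Bcl2 and Bcl2l1 hold regions that moved in both directions.

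Among the protective genes, Bcl2 was higher and Mcl1 lower in PB3-ERI-R, and Bcl2l1 was not called. Bcl2, the founding member, had 203 and 169 CPM in PB3-Parental, 245 and 230 in PB3-ERI-R, 193 and 178 in PB3-PAC-R and 210 and 192 in PB3-VIN-R. The PB3-ERI-R libraries were the highest 2 of the 8, by a narrow margin over 1 PB3-VIN-R library. The difference from PB3-Parental was 0.35 ± 0.12 (log2 ± SE, n = 2 per line, adjusted p = 0.0237). It no longer passed without PB3-Parental replicate 2 (0.23) or without PB3-ERI-R replicate 1 (0.31). Nor did it pass with copy number offsets (0.24), which subtract the median shift of the surrounding 5 Mb. Those shifts were taken on the region scaling. With them the median over all loci was -0.12, against -0.00 without them. Within the locus, the region over the start (chr1:106713750-106714902) rose by 0.66 ± 0.16 (adjusted p = 0.0019), but was not called with scaling by total counts alone (0.30). A region 24.4 kb downstream (chr1:106513297-106513817), named after its values were seen, went from 5.18 and 6.06 CPM in PB3-Parental to 31.1 and 29.2 in PB3-ERI-R, and stayed between 5.68 and 6.57 in the other 4 libraries. An intragenic region (chr1:106547446-106547804) moved the other way, from 6.68 and 3.93 CPM to 1.21 and 1.66 (-1.90 ± 0.36). In all, 5 of 9 Bcl2 regions were higher and 2 lower.

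Bcl2l1, which encodes Bcl-xL, summed to 314 and 332 CPM in PB3-Parental and 363 and 316 in PB3-ERI-R, a difference of 0.07 ± 0.11 (adjusted p = 0.584), within the spread of the libraries. The sign turned with copy number offsets (-0.17, where the median over all loci was -0.12) and with scaling by total counts alone (-0.02). Leaving out 1 library in turn gave -0.03 to 0.19. The locus scaling behind this sum sets PB3-ERI-R lower than the scaling of the region values below does. Beneath this sum 5 of its 13 regions rose and 4 fell. The region nearest its upstream gene end (chr2:152830970-152831865) had 50.3 and 44.1 CPM in PB3-Parental and 52.9 and 55.6 in PB3-ERI-R (0.20 ± 0.14, adjusted p = 0.221). Its neighbour, which also holds an annotated start (chr2:152830431-152830871), rose from 21.4 and 20.7 to 34.0 and 33.5 CPM (0.68 ± 0.17, adjusted p = 0.0025), but was not called with scaling by total counts alone (0.33). Chosen after their values were seen, chr2:152827279-152827560, inside the gene and 929 bp from an annotated start, rose from 1.44 and 3.19 to 23.1 and 22.7 CPM (3.31 ± 0.35). The region chr2:152782742-152782978, also inside the gene, fell from 10.7 and 10.4 to 2.60 and 2.77 CPM (-1.97 ± 0.29). The window before the start nearest the gained region held 1 match to the Grainyhead-like pattern as searched, AACCNGGTT.

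Mcl1, the short-lived protective member, summed to 226 and 223 CPM in PB3-Parental, 176 and 172 in PB3-ERI-R, 227 and 228 in PB3-PAC-R and 230 and 221 in PB3-VIN-R. Both PB3-ERI-R libraries lay below all others, 1.29-fold lower than PB3-Parental (-0.37 ± 0.09, adjusted p = 0.0054). This sum carries the locus scaling, which sets PB3-ERI-R lower than the scaling behind the region values that follow. On the region scaling, the median log2 difference over its 5 regions was -0.02, against -0.37 for the sum. How much of the difference the locus scaling makes up was not tested. The region over the Mcl1 start (chr3:95658384-95659697), the one whose sequence is shown, had 69.8 and 65.5 CPM in PB3-Parental and 71.1 and 66.5 in PB3-ERI-R (0.03 ± 0.14, adjusted p = 0.878). It was called lower with loess offsets (-0.34), which remove a trend with the mean level, and with scaling by total counts alone (-0.33). Called losses lay upstream, at chr3:95648096-95648356 (16.0 and 13.7 to 3.07 and 5.43 CPM, -1.82 ± 0.28) and chr3:95650419-95651208 (49.4 and 51.0 to 38.0 and 35.7 CPM, -0.45 ± 0.14), the latter not called without PB3-Parental replicate 2 (-0.42). Of its 5 regions, 1 downstream was higher, by 0.52 ± 0.17, and lost its call with copy number offsets (0.30), with scaling by total counts alone (0.16), without PB3-ERI-R replicate 1 (0.48) and without PB3-Parental replicate 1 (0.33). The locus difference was -0.58 with copy number offsets, where the median over all loci was -0.12.

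The pore formers differed from each other. Bax had 77.7 and 76.1 CPM in PB3-Parental, 48.6 and 38.7 in PB3-ERI-R, 77.6 and 75.7 in PB3-PAC-R and 76.2 and 68.7 in PB3-VIN-R. The PB3-ERI-R libraries were the lowest, 1.76-fold below PB3-Parental (-0.81 ± 0.12, adjusted p = 0.0002). Its 2 regions moved in opposite directions: the one just downstream of the gene (chr7:45460736-45461335, 0.360 kb past its end) fell by 1.04 ± 0.18 on the log2 scale, while the one over the start (chr7:45466360-45467027) rose by 0.60 ± 0.21 (adjusted p = 0.0188). The rise at the start was not called with copy number offsets (0.45) or with scaling by total counts alone (0.24). Nor was it called without PB3-ERI-R replicate 1 (0.56) or PB3-Parental replicate 1 (0.53). Bak1 summed to 44.0 and 35.1 CPM in PB3-Parental and 36.0 and 36.3 in PB3-ERI-R (-0.13 ± 0.19, adjusted p = 0.583), with neither of its 2 regions called. At its start (chr17:27028312-27028788) the values were 23.8 and 18.0 CPM against 23.0 and 21.6 (0.09 ± 0.21), and the other region stood at 0.24. Both regions lay above 0 and the locus value below it, since loci and regions were scaled separately. The sign of the Bak1 locus turned with copy number offsets (0.17) and without PB3-Parental replicate 1 (0.04), and its other region was called higher with copy number offsets (0.54) and with loess offsets (0.64), which remove a trend with the mean level.

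Among the BH3-only genes Bik changed most. It had 8.74 and 11.0 CPM in PB3-Parental, 73.1 and 64.7 in PB3-ERI-R, 10.2 and 8.12 in PB3-PAC-R and 6.48 and 5.56 in PB3-VIN-R. The PB3-ERI-R libraries were 6.98-fold above PB3-Parental (2.80 ± 0.20, adjusted p = 6.9e-07), with no overlap with any other library. The region chr15:83530300-83530742, inside the gene, was nearly closed in PB3-Parental (0.542 and 0.200 CPM) and open in PB3-ERI-R (26.3 and 18.5 CPM; 5.86 ± 0.42). The second, chr15:83535402-83536033, rose from 6.80 and 9.25 to 49.6 and 47.6 CPM (2.60 ± 0.23). In PB3-VIN-R Bik was lower in value than in PB3-Parental (-0.71 ± 0.20), which did not pass (adjusted p = 0.240).

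Bcl2l11 (Bim) summed to 106 and 104 CPM in PB3-Parental, 190 and 177 in PB3-ERI-R, 98.5 and 97.2 in PB3-PAC-R and 104 and 105 in PB3-VIN-R. The gain in PB3-ERI-R was 1.75-fold (0.81 ± 0.09, adjusted p = 2.2e-05). It came mainly from downstream regions named after their values were seen: chr2:128172126-128172659, 9.58 kb past the gene, rose from 4.63 and 3.26 to 47.6 and 42.6 CPM (3.51 ± 0.35). The region chr2:128208275-128208985, 45.7 kb past the gene, rose from 2.71 and 4.39 to 40.1 and 32.4 CPM (3.36 ± 0.31). Between them chr2:128179047-128179457 fell from 9.21 and 10.5 to 4.37 and 4.98 CPM (-1.08 ± 0.26, adjusted p = 0.0017), and in all 5 of 7 regions were higher and 1 lower. At the second annotated start (chr2:128127181-128127673) the change was small, 0.47 ± 0.15 (adjusted p = 0.0120). It did not pass with scaling by total counts alone (0.12), with loess offsets (0.27) or without PB3-Parental replicate 2 (0.41). The region at the first start is shared with Acoxl and was counted there (0.20 ± 0.17, adjusted p = 0.310); counting it for both genes gave 0.56 for the Bcl2l11 locus, still called.

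**Figure D4:**
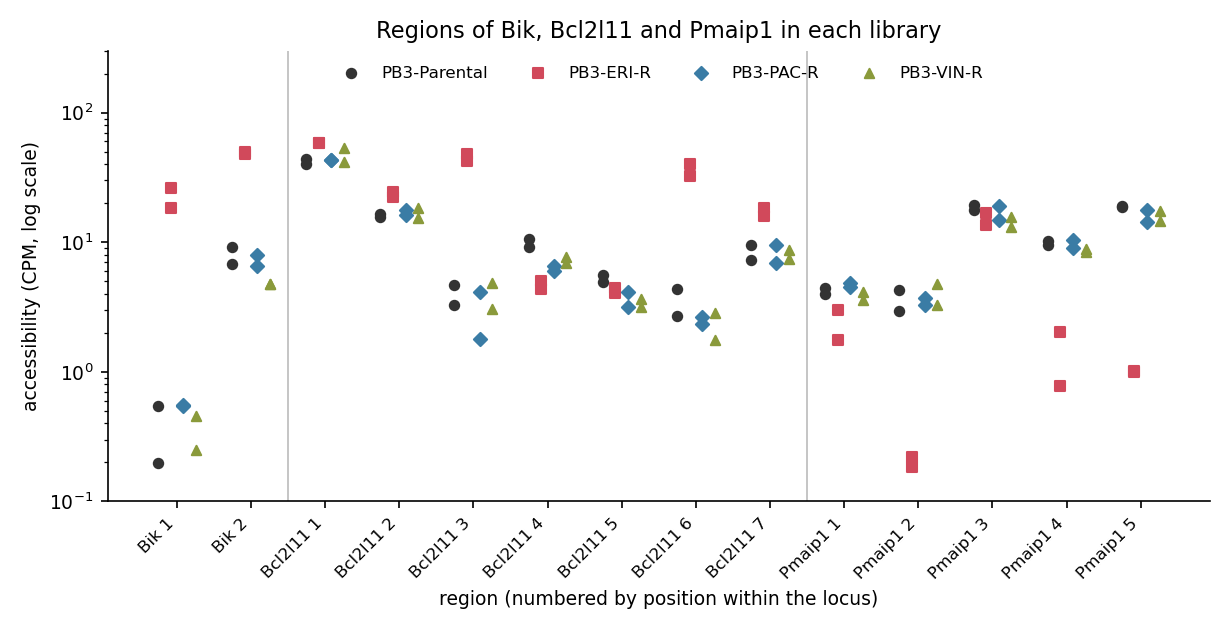
Accessibility (CPM, log scale) of each region of Bik, Bcl2l11 and Pmaip1 in the 8 libraries, numbered by position. PB3-ERI-R is above the other lines at both Bik regions and far above them at the third and sixth Bcl2l11 regions. It is also above them, by less, at the first, second and seventh Bcl2l11 regions. Of the 5 Pmaip1 regions, 4 were called lower in PB3-ERI-R than in PB3-Parental, 4 than in PB3-PAC-R and 3 than in PB3-VIN-R.

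Bmf, a sensor tied to the actin motor complex, summed to 216 and 178 CPM in PB3-Parental, 319 and 271 in PB3-ERI-R, 201 and 184 in PB3-PAC-R and 191 and 168 in PB3-VIN-R, a 1.50-fold gain in PB3-ERI-R (0.58 ± 0.13, adjusted p = 0.0030). Of its 3 start regions, 1 was called. At the innermost start (chr2:118544242-118544893) accessibility rose from 14.9 and 11.3 CPM to 81.4 and 67.5 (2.50 ± 0.19, adjusted p = 3.7e-08). At the outermost start (chr2:118549550-118549955) it was 26.7 and 30.5 against 19.5 and 25.1 CPM (-0.36 ± 0.21, adjusted p = 0.140), and at the middle start (chr2:118547547-118547807) 18.6 and 16.4 against 24.4 and 20.4 (0.36 ± 0.21, adjusted p = 0.131). The outermost region was called lower with copy number offsets (-0.51) and with scaling by total counts alone (-0.71), and the middle one higher with loess offsets (0.62). The ratio of the innermost to the outermost start region was 0.560 and 0.370 in PB3-Parental, 4.17 and 2.69 in PB3-ERI-R, 0.460 and 0.391 in PB3-PAC-R and 0.544 and 0.419 in PB3-VIN-R, a comparison chosen after the values were seen. The PB3-ERI-R libraries thus had more signal at the innermost start and the other 6 at the outermost. In all, 5 of 14 Bmf regions were higher and 0 lower, and with only the regions within 1 kb of a gene end, which leave out the innermost start, the locus difference was 0.16 (not called).

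**Figure D5:**
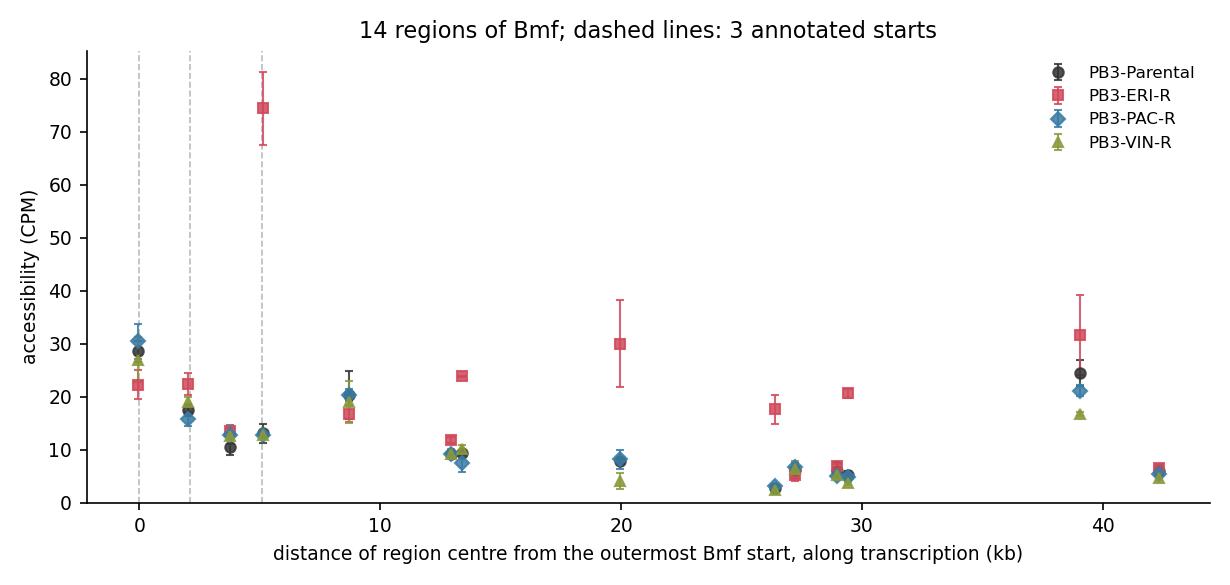
Accessibility (CPM) of the 14 Bmf regions against distance from the outermost start along the direction of transcription; points are means of 2 libraries, bars span them, and dashed lines mark the 3 annotated starts. The innermost start reaches 81.4 CPM in PB3-ERI-R and at most 14.9 in the other lines.

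Bbc3 (Puma), a target of p53, summed to 143 and 140 CPM in PB3-Parental and 175 and 145 in PB3-ERI-R (0.18 ± 0.11, adjusted p = 0.194). The value turned to -0.10 with copy number offsets, where the median over all loci was -0.12. It was 0.04 without PB3-ERI-R replicate 1, and passed without PB3-ERI-R replicate 2 (0.32). Its 2 start-holding regions were higher, chr7:16309132-16309672 by 0.59 ± 0.20 and chr7:16310003-16310368 by 0.85 ± 0.22, where the median over all start-holding regions was 0.37. The first was not called with copy number offsets (0.32), with scaling by total counts alone (0.23), without PB3-ERI-R replicate 1 (0.40) or without PB3-Parental replicate 1 (0.40).

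Pmaip1 (Noxa), which binds Mcl1 protein and promotes its degradation, had the largest loss of the family. It summed to 64.3 and 65.4 CPM in PB3-Parental, 17.8 and 21.3 in PB3-ERI-R, 55.3 and 63.7 in PB3-PAC-R and 60.0 and 50.2 in PB3-VIN-R. The PB3-ERI-R libraries lay far below the rest, 3.32-fold under PB3-Parental (-1.73 ± 0.15, adjusted p = 2.6e-06). The region with the smallest p among those that fell lies 12.2 kb beyond the gene (chr18:66477765-66478443) and went from 18.7 and 19.1 CPM to 1.02 and 0.997 (-4.21 ± 0.30). The region that covers the lower end coordinate of the gene (chr18:66458244-66459039) was 17.6 and 19.4 against 13.5 and 16.8 CPM (-0.29 ± 0.23, adjusted p = 0.254). It was called lower with scaling by total counts alone (-0.64). The 4 called regions lie 7.29 to 47.8 kb outside the gene body. The region 47.8 kb away (-0.84) was not called by DESeq2, with loess offsets, with only the lines compared, or without PB3-ERI-R replicate 1 (-0.49) or PB3-Parental replicate 2 (-0.76). With regions within 10 kb the locus difference was -1.05, still called. Counting only regions within 1 kb of a gene end gave -0.66, but there Pmaip1 has the 1 region that stood at -0.29 above, and the gap comes from that fit's own scaling, computed on gene-end regions alone.

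Per kilobase of region, which allows genes to be compared, mean accessibility in PB3-Parental ran from 74.9 CPM per kb at Bbc3, 63.1 at Mcl1 and 60.7 at Bax down to 26.5 at Pmaip1 and 9.18 at Bik. In PB3-ERI-R Bbc3 stayed first at 84.7, Bik stood second at 64.1 and Pmaip1 last at 8.01. Differences between neighbours in this order were not tested.

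In PB3-PAC-R the 64 regions differed from PB3-Parental by -0.64 to 0.54 on the log2 scale and 0 were called (background 0.0853%; 1 at an unadjusted p under 0.05, 0 by DESeq2). The smallest p was at a Bcl2l11 downstream region (chr2:128179047-128179457, -0.64 ± 0.24, adjusted p = 0.639). In PB3-VIN-R they differed by -0.96 to 0.57 and 0 were called (background 0.678%; 6 at an unadjusted p under 0.05, 0 by DESeq2), with the smallest p at the second Bik region (-0.75 ± 0.23, adjusted p = 0.190). In both lines the smallest p among higher values was at chr2:152804858-152805122 in Bcl2l1, 0.31 ± 0.23 for PB3-PAC-R against 0.57 ± 0.23 for PB3-VIN-R, neither called.

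PB3-ERI-R was also compared with the other resistant lines, which share its libraries with the comparison above. Against PB3-PAC-R 4 loci were higher and 3 lower (background 60.4%, with 29.5% higher and 30.9% lower), with Bik at 2.91 ± 0.20 and Pmaip1 at -1.61 ± 0.15. Against PB3-VIN-R 3 were higher and 3 lower (background 58.9%, with 28.3% higher and 30.6% lower), with Bik at 3.51 ± 0.20, Pmaip1 at -1.50 ± 0.15 and Bcl2 at 0.24 ± 0.12, which did not pass (adjusted p = 0.0948). Of the 64 regions, 41 were called against PB3-PAC-R (background 73.0%) and 40 against PB3-VIN-R (background 73.1%). Between PB3-PAC-R and PB3-VIN-R 0 of 10 loci (background 0.0335%) and 0 of 64 regions (background 0.00871%) were called by edgeR and 0 by DESeq2.

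The wider apoptosis machinery was described from lists of related genes, to be read against the 58.3% of all loci called in PB3-ERI-R against PB3-Parental (28.0% higher, 30.3% lower). Gene-end values here come from the fit with its own scaling described at Pmaip1. Values with copy number offsets carry shifts taken on the region scaling, as described at Bcl2. Of 11 measured other Bcl2 family loci (15 listed), 2 were higher and 6 lower in PB3-ERI-R, including Bcl2l14 (2.04 ± 0.11) and the Bax-like Bok (-1.39 ± 0.19, and -0.66 at gene ends). The Bcl2l14 gain was 0.10 (not called) when only regions within 10 kb were counted. Among 16 measured loci of the caspase machinery (17 listed), 2 were higher and 5 lower, with Casp9, the initiator caspase of the mitochondrial pathway, at -1.06 ± 0.12 and -0.32 with copy number offsets. Htra2, a protease released from mitochondria, stood at -2.22 ± 0.26, and at -0.23 (not called) when tied regions counted for every gene. The inhibitors of apoptosis (5 of 8 measured) had 3 higher and 1 lower, with Birc3 at 1.50 ± 0.30 and Birc5 (survivin) at 1.44 ± 0.11, the latter 0.01 with copy number offsets. Genes of death receptor signalling (9 of 10 measured) had 4 higher and 4 lower. Tnf, which encodes a ligand, stood at 5.90 ± 0.40. It had 1 region, near the floor in PB3-Parental (0.358 and 0.155 CPM) and at 16.7 and 15.4 CPM in PB3-ERI-R. Cflar, an inhibitor of caspase-8 activation, stood at -1.06 ± 0.12, and at -0.32 (not called) at gene ends. Known regulators of the family (20 of 21 measured) had 8 higher and 4 lower, with Foxo1 at 1.23 ± 0.13 (0.81 with copy number offsets, 0.16 and not called at gene ends) and Trp63 at 1.20 ± 0.16, the latter 0.44 with copy number offsets.

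In PB3-PAC-R 0 loci of these lists changed. In PB3-VIN-R 1 locus of the other Bcl2 family genes, Bcl2l14 (0.59 ± 0.11, adjusted p = 0.0475), and 1 inhibitor of apoptosis, Xiap (0.65 ± 0.11, adjusted p = 0.0291), were higher. With copy number offsets neither was called (0.34 and 0.58). By edgeR, Bcl2l14 also missed the threshold with RLE size factors (adjusted p = 0.0516), with tied regions counted for every gene (0.0543) and with only the 2 lines compared (0.0579), and Xiap with regions within 10 kb (0.0530). Bcl2l14 missed it too without any one library of PB3-Parental, PB3-PAC-R or PB3-VIN-R and without PB3-ERI-R replicate 1 (0.52 to 0.64). Xiap missed it without any one library of PB3-Parental, PB3-ERI-R or PB3-VIN-R (0.56 to 0.74).

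Over the 8 libraries, the locus whose centred log2 CPM was closest to Bik was Ecrg4, with a root mean square difference of 0.108. The closest to Pmaip1 was Elavl1 (0.0421), to Bcl2l11 Micu3 (0.0392), to Bmf Slc10a7 (0.0404), to Bcl2 Kmt2b (0.0332), to Mcl1 Dnm2 (0.0219) and to Bax Xpnpep1 (0.0422).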

How the data were processed

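The 8 ATAC-seq libraries, 2 for each of 4 lines, were grouped by their cell line label. The submitters' processing notes list MACS2 2.1.1, Bowtie2 2.2.6, cutadapt 1.9.1, bcl2fastq 2.20.0.422, deepTools, featureCounts and Picard, and name mm10 and GRCm38 as builds. Tool settings, and the choice between counting reads and counting fragments, are not given here. As deposited, the main table has raw whole-number counts for each region and library. A peak list was deposited for every line, with a score from 830 to 1000. These deposited lists also hold a fold enrichment (a ratio over background). The deposited lists further hold a -log10 q value. Positions, classed as other values, fill the deposited region list.

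Regions were assigned to the nearest protein-coding gene body of the RefSeq annotation of GRCm38.p6 within 50 kb, ties going to the nearest gene end and then by alphabet, and counts were summed per gene (a locus). Regions and loci were each fitted with edgeR 4.0.16 in R 4.3.3 (filterByExpr, TMM, quasi-likelihood test, all 8 libraries, 1 term per line), with Benjamini-Hochberg adjustment over all 57415 regions or 14939 loci tested and a threshold of 0.05. Standard errors were taken as log2 fold change over the root of the F statistic. Library sizes for CPM were adjusted by TMM, separately for regions and for loci. The procedure was tested on simulated data. Alternatives were other scalings (RLE, none, loess, copy number offsets from medians of 5 Mb windows), no filter, DESeq2 1.42.0, a replicate block, each library left out, only the lines compared, and other assignments of regions. Copy number offsets were computed on the region scaling and applied to loci as well. An uncalled value that changed sign was taken as having no direction.

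All 10 genes are named, with the region nearest to each gene's start and, for each comparison with PB3-Parental, the member region with the smallest p in each direction; from each other list up to 2 called loci with the smallest p, and for each changed member the 1 locus most like it. Other regions named were chosen after their values were seen, and not all of them are marked so where they appear. The members and lists were chosen with earlier results of these data known. Library totals of 10521964 to 24052237 counts set the precision, which covers counting error only where counts are few.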

Additional observations from a re-analysis of the deposited data

How the results depend on the processing

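Of the member counts in the 6 comparisons, those of loci moved by over 1.5 times when only regions within 1 kb of a gene end were counted: 2 loci changed in PB3-ERI-R against PB3-Parental, 3 against PB3-PAC-R and 3 against PB3-VIN-R, with 7 members tested, since Bcl2l1, Bcl2l11 and Bik have no such region. Of all loci 41.2%, 44.8% and 41.9% were then called. Bmf (0.16), Mcl1 (-0.38) and Bcl2 (0.29) were not called against PB3-Parental. This fit has its own scaling: the 1 Mcl1 region it counts stood at -0.02 among all regions. Replicate numbers are shared by the lines in the labels but nothing says that they mark a shared culture or day; deviations of same-numbered libraries correlated at 0.073 to 0.446. With a replicate block, 2 member regions changed in PB3-VIN-R against PB3-Parental, in Bik (-0.74, adjusted p = 0.0385) and Bmf (-1.03, adjusted p = 0.0118), and 1 in PB3-PAC-R against PB3-VIN-R, where 0 were called without it. Leaving out 1 library in turn gave 6 to 8 changed loci for PB3-ERI-R against PB3-Parental and against PB3-PAC-R, and 6 to 7 against PB3-VIN-R; changed regions ranged from 33 to 41, 34 to 40 and 33 to 39, and from 0 to 0 in the other comparisons. DESeq2 called 7, 8 and 6 loci in these 3 comparisons. Of the 41 regions called, 28 were called in every one of 17 settings. For left-out libraries, the replicate block, DESeq2 and all 17 settings, shares over all loci or regions are not given here. These counts therefore describe the members and do not set the family apart. Locus values against PB3-Parental that changed sign were uncalled in both settings: PB3-ERI-R had 6 of 187, PB3-PAC-R 46 and PB3-VIN-R 11. Counting only peaks with a score of 1000 left PB3-Parental with 30 of 42 member regions that had a peak, PB3-ERI-R with 31 of 38, PB3-PAC-R with 31 of 41 and PB3-VIN-R with 35 of 52. Apart from the scaling named above, the cause of these changes was not tested.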
